A study of Mus musculus with 56 samples.

Results

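The glucocorticoid and metallothionein response of the liver was followed through 10 genes chosen by name, Nr3c1, Hsd11b1, Fkbp5, Tsc22d3, Mt1, Mt2, Sgk1, Cdkn1a, Gadd45b and Zbtb16, out of the 52230 genes in the deposited tables. All 10 were found, and estimated read counts were summed over the transcripts of each gene. The rule that names them uses no measured value, but the members were chosen with earlier results of these data known. Shares of members called, set beside those of all genes, carry that limit.

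Liver RNA was sequenced from 56 male mice of 1 knock-in line, GCKR-P446L-EMI-B6N, in which residue 446 of glucokinase regulatory protein (GKRP, gene Gckr) is proline (P) or leucine (L) in every cell that makes it. GKRP binds glucokinase and holds it in the hepatocyte nucleus. All mice ate a high-fat high-sugar diet (HFHSD, 45% of energy from fat, with 10% glucose and 5% fructose in the drinking water) for 20 weeks, and a subset of each genotype also received a glucokinase activator (GKA) at 3 mg/kg in that diet. Untreated mice were 446PP (10 mice), 446PL (8 mice) and 446LL (10 mice), written PP, PL and LL, and the GKA-treated groups PP+GKA, PL+GKA and LL+GKA held 10, 8 and 10 mice. The authors left PP mouse 7 out, as was done here, so that n = 9 for PP and 55 mice were compared. There was no regular-diet group in these files, and the labels name neither the activator, nor the mice's age, nor the hour of harvest. Each mouse is 1 sample, numbered 1 to 56 as in the labels.

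Corticosterone, the glucocorticoid of mice, enters hepatocytes and binds the glucocorticoid receptor, which is held ready in the cytoplasm by heat shock proteins and co-chaperones and then acts in the nucleus as a transcription factor. In liver this pathway raises gluconeogenic and amino acid catabolic enzymes, and hormone release follows a daily rhythm and stress. Metallothioneins are small cysteine-rich proteins that bind zinc and copper; their genes respond to metals through the factor MTF1 and also to glucocorticoids and inflammation.

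The members fall into 4 roles. Nr3c1 encodes the receptor, Hsd11b1 the enzyme that regenerates active hormone from its inert keto form inside the cell, and Fkbp5 a co-chaperone that lowers the receptor's affinity for hormone. Tsc22d3 (the leucine zipper protein GILZ), Sgk1 (a kinase), and Zbtb16 (the zinc finger factor PLZF) are widely used as induced targets. Mt1 and Mt2 are the 2 metallothioneins of liver. Cdkn1a (the cyclin-dependent kinase inhibitor p21) and Gadd45b (a stress-response protein) are shared with other stress pathways, p53 among them for Cdkn1a.

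Upstream sequences are shown for the 2 metallothionein genes, whose reads moved together from mouse to mouse, and for Tsc22d3, the member with the clearest genotype difference. Each holds the 250 bases before the annotated start of the gene's most-read transcript, 5' to 3' on the gene's own strand, from GRCm39 with GENCODE release M39: Mt1 at chr8:94905460-94905709 (plus strand), Mt2 at chr8:94898882-94899131 (plus strand) and Tsc22d3 at chrX:139443937-139444186 (minus strand). Capitals mark matches to the metal response element TGCNCNC on either strand.
Mt1: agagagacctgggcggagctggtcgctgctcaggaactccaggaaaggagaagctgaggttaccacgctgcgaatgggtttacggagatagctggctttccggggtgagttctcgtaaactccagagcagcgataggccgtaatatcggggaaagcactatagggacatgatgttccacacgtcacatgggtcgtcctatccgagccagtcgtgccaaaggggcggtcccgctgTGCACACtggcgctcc
Mt2: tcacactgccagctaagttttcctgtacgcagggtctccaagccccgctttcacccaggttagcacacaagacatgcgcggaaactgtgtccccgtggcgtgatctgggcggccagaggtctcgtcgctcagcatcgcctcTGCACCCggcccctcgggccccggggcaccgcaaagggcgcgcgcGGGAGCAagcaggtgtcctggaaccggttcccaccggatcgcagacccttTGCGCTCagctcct
Tsc22d3: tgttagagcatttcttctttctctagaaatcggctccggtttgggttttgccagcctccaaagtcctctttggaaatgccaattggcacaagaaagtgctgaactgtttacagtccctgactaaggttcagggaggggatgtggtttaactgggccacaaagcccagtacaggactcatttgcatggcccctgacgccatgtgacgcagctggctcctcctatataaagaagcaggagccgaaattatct
Counting also the 50 bases after the start, Mt1 held 3 such matches and Mt2 held 4, of which 1 and 3 lie wholly upstream. Counted from the start, with negative positions upstream, they begin at -16, 10 and 28 in Mt1 and at -109, -64, -14 and 2 in Mt2, and all but the one at -64 are on the gene's own strand. The letters are short and common: 55.4% of the same 300-base windows of 11476 genes held at least 1 match, 7.93% at least 3 and 2.60% at least 4. Of the other members Sgk1 held 3 matches, Hsd11b1 held 2, and Fkbp5 and Nr3c1 held 1 each, whereas Tsc22d3, Cdkn1a, Gadd45b and Zbtb16 held none. The glucocorticoid receptor motif AGAACA was found once, in Hsd11b1, against 14.4% of all windows with at least 1, and the palindrome of 2 such motifs spaced by 3 bases was in no member and in 3 of the 11476 windows. These are matches of letters only. The main transcript of Mt2 is 511 bases long in the release used for the files and 682 in the release used for these windows, and that of Tsc22d3 is 1974 and 2160, so their starts may differ between releases. The main transcript of Mt1 is 549 bases in both, which does not show that transcription starts there. Another annotated transcript of Mt1 starts further downstream, at chr8:94905869. The matches therefore describe the windows at these annotated starts only.

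Mt1 and Mt2 are neighbours on chromosome 8, with starts 6578 bases apart, and the longest run shared by their main transcripts was 20 bases. Tsc22d3 (ENSMUSG00000031431) lies at chrX:139440091-139501408, Cdkn1a (ENSMUSG00000023067) at chr17:29309936-29319701 and Zbtb16 (ENSMUSG00000066687) at chr9:48563141-48748664, all on GRCm39. Of the other members, Nr3c1 lies at chr18:39543598-39652474, Hsd11b1 at chr1:192903918-192946489, Fkbp5 at chr17:28618058-28737521, Sgk1 at chr10:21758083-21875802 and Gadd45b at chr10:80764523-80768038. Exons of Cdkn1a overlap those of Dino and Gm64878 on the opposite strand, and exons of Mt2 overlap Gm45774 on the opposite strand. Exons of Nr3c1 (Gm58395), Fkbp5 (Gm22146, Gm55779 and Gm65054) and Sgk1 (Gm66039 and an unnamed lncRNA) also overlap genes on the opposite strand. Whether reads were assigned by strand is not given in the sources used here, so reads of these pairs cannot be told apart.

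The 56 libraries held 5189850 to 8093370 estimated reads. Per transcript length, in TPM, the members spanned a wide range of median levels over the 55 mice. Hsd11b1 was highest at 333 TPM, followed by Mt1 at 25.6, Tsc22d3 at 10.2, Mt2 at 9.28 and Nr3c1 at 5.47, while Sgk1 (2.74), Cdkn1a (2.03), Fkbp5 (1.96), Zbtb16 (0.436) and Gadd45b (0.234) were low. Hepatocyte markers (Alb, Apoa1, Ttr, Serpina1a and Cps1) were detected in all groups and summed to 71340 to 125400 CPM (read counts scaled to the normalised library size) in single mice, as fits the labelled tissue, and of 3 pancreas markers (Cpa1, Prss2 and Cela1) 2 were at 0 in every mouse while the list summed to 6.81 to 50.8 CPM. Summed blood markers (Hbb-bs, Hba-a1, Alas2) stood high in LL+GKA mouse 53 (2136 CPM), LL mouse 37 (1229 CPM) and PL+GKA mouse 35 (932 CPM) against a median of 395 CPM; without these 3 mice together, an alternative chosen after seeing the data, the number of members called in each comparison that holds 1 of them was the same.

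**Figure D1:**
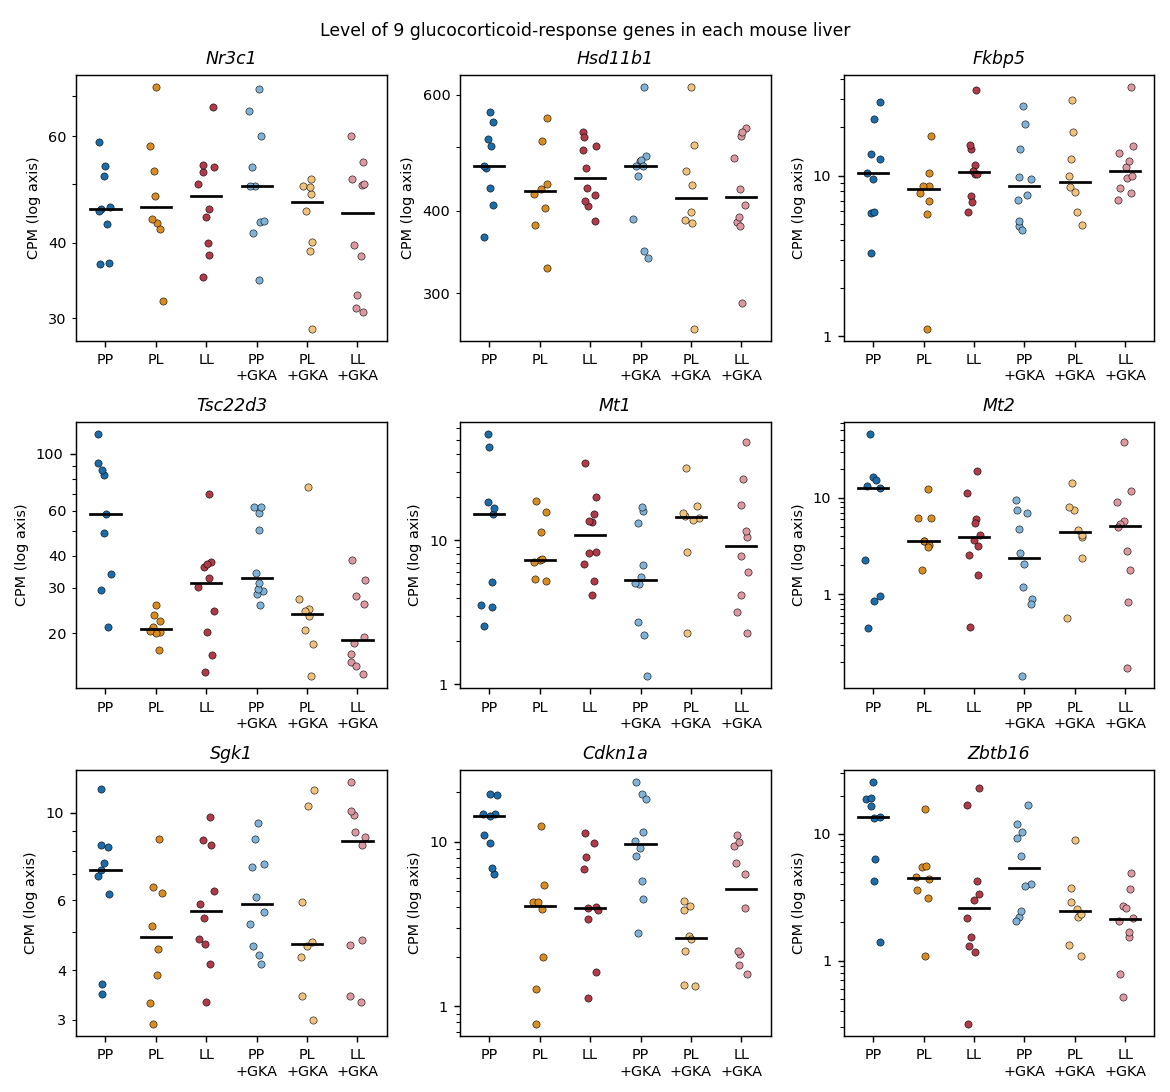
Normalised level of the 9 members that passed the filter on low counts in each of 55 mouse livers, in CPM on a log axis, by group; bars are group medians. Tsc22d3 sits between 17.1 and 25.9 CPM in the 8 PL mice against 21.1 to 119 CPM in the 9 PP mice, and Mt2 runs from 0.143 to 45.7 CPM over all mice.

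Variation among the 6 groups was examined first, with 1 edgeR quasi-likelihood test per gene over all 55 mice, adjusted by Benjamini-Hochberg over the 11477 genes kept. Tsc22d3 (adjusted p = 0.00113), Cdkn1a (adjusted p = 0.00252) and Zbtb16 (adjusted p = 0.0215) passed, which is 3 of the 9 members tested against 216 genes or 1.88% of all genes tested. In a single draw of simulated counts this test over 6 groups made more false calls than its threshold allows, which calls for care but cannot settle its error rate. The likelihood ratio test of DESeq2 also called these 3 members, among 403 of 11477 genes. Gadd45b did not pass the filter on low counts. The other 6 members had adjusted p-values of 0.579 (Mt2) to 0.973 (Hsd11b1). In livers taken whole, fewer cells of a type and less RNA per cell cannot be told apart for any of these differences.

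The same 3 genes fell with the number of 446L alleles, tested as a linear slope over all mice with GKA as a term. The group means were not always graded from PL to LL. Without GKA, means in PP, PL and LL were 13.0, 4.31 and 5.39 CPM for Cdkn1a and 63.7, 21.3 and 31.9 CPM for Tsc22d3. For Zbtb16 they were 13.3, 5.45 and 5.68 CPM. With GKA they were 11.3, 2.79 and 5.58 CPM for Cdkn1a. Tsc22d3 (41.3, 28.3 and 22.3 CPM) and Zbtb16 (6.98, 3.14 and 2.27 CPM) fell stepwise there. Zbtb16 fell by 0.71 ± 0.18 (SE) on the log2 scale per allele (adjusted p = 0.0111), Cdkn1a by 0.57 ± 0.15 (adjusted p = 0.0141) and Tsc22d3 by 0.47 ± 0.10 (adjusted p = 0.00417). With an offset for the length of the isoforms in each mouse, Zbtb16 alone still passed (-0.76, adjusted p = 0.0446), and Tsc22d3 (-0.42, adjusted p = 0.0864) and Cdkn1a (-0.49, adjusted p = 0.159) did not. With the clock component described further on as a covariate, none of the 3 passed (adjusted p = 0.0591, 0.0770 and 0.318 for Zbtb16, Tsc22d3 and Cdkn1a). Without these terms this was 3 of 9 members, all lower, against 405 of 11477 genes or 3.53% called, of which 172 were higher and 233 lower. The median member changed by -0.03 per allele, as 3 members were higher and 6 lower, and the median of all genes was 0.00. The slopes of the 6 other members lay between -0.05 (Nr3c1) and 0.07 (Fkbp5). For Mt1 and Mt2 (SE 0.18 and 0.23) the slope pools differences of opposite sign. In LL against PP they were at -0.48 and -1.03 without GKA and at 0.87 and 1.11 with GKA, and none of these passed.

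Tsc22d3, which encodes an anti-inflammatory protein induced by the receptor, was lower and less variable in untreated heterozygotes than in PP mice. The lowest, median and highest mouse had 21.1, 58.2 and 119 CPM in PP, 17.1, 20.8 and 25.9 CPM in PL, and 14.1, 31.5 and 69.9 CPM in LL. With GKA the same 3 values were 25.7, 32.9 and 62.3 CPM in PP+GKA, 13.6, 23.8 and 74.5 CPM in PL+GKA, and 13.9, 18.8 and 38.6 CPM in LL+GKA. All 8 PL mice were below the PP mean of 63.7 CPM and 4 of them were below every PP mouse, although the groups overlapped because PP itself spread over nearly the whole range.
Between PL and PP the log2 fold change was -1.57 ± 0.28 (SE, adjusted p = 0.0191), a PL level of 0.336 times that of PP. It was the only member among the 16 genes called in this comparison (0.151% of 10580 tested; 5 higher and 11 lower). LL stood at 0.501 times the PP level (SE 0.31 on the log2 scale, p = 0.00457, adjusted p = 0.176), where 9 of 10 LL mice lay under the mean of PP, and for LL+GKA against PP+GKA the log2 fold change was -0.88 ± 0.22 (adjusted p = 0.0862), with 10 of 10 mice below the PP+GKA mean and 6 below every PP+GKA mouse. Neither passed the threshold. PL+GKA against PP+GKA gave -0.54 ± 0.29 (adjusted p = 0.678), and the change in the PL effect with GKA was 1.04 ± 0.41 (p = 0.0167, adjusted p = 1.00).
The call between PL and PP was lost without PL mouse 25 (adjusted p = 0.0514), 26 (0.0605) or 28 (0.0599), with the log2 fold change then at -1.62 to -1.57, and it held in the other 14 of 17 fits that left out 1 mouse. It was also lost with an offset for transcript length (-1.69, adjusted p = 0.0663).

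Cdkn1a, an inhibitor of the cell cycle, was higher in PP mice than in carriers of the L allele with and without GKA. Without GKA the lowest, median and highest mouse had 6.33, 14.2 and 19.5 CPM in PP, 0.786, 4.09 and 12.5 CPM in PL, and 1.12, 3.96 and 11.2 CPM in LL. With GKA they had 2.80, 9.62 and 23.1 CPM in PP+GKA, 1.34, 2.62 and 4.38 CPM in PL+GKA, and 1.57, 5.16 and 11.1 CPM in LL+GKA. The ranges overlapped in each of the 9 comparisons made, but 7 of 8 PL mice and 6 of 10 LL mice were below every PP mouse.
The largest difference was between PL+GKA and PP+GKA, at 0.250 times the PP+GKA level (SE 0.37 on the log2 scale). Its adjusted p of 0.113 equalled the smallest of the 10520 genes tested there, a value shared with other genes, and did not pass. DESeq2 called it (adjusted p = 0.000107), as did edgeR with all 6 groups in 1 fit (adjusted p = 0.0315). The differences from PP without GKA were -1.55 ± 0.37 in PL (adjusted p = 0.0955) and -1.23 ± 0.32 in LL (adjusted p = 0.112), which DESeq2 also called (adjusted p = 0.00649 and 0.0154). In PL the call by edgeR was made without PL mouse 22, which had the highest value of that group (adjusted p = 0.0192). LL+GKA stood at 0.501 times PP+GKA (SE 0.38 on the log2 scale, adjusted p = 0.338) and at 2.00 times PL+GKA (SE 0.39, p = 0.0200, adjusted p = 0.494).

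Zbtb16, a transcription factor, showed the widest spread of these 3 genes. The lowest, median and highest mouse had 1.402, 13.5 and 25.8 CPM in PP, 1.08, 4.48 and 15.7 CPM in PL, and 0.319, 2.59 and 22.9 CPM in LL. Under GKA the values were 2.07, 5.34 and 16.9 CPM in PP+GKA, 1.10, 2.45 and 8.96 CPM in PL+GKA, and 0.517, 2.13 and 4.89 CPM in LL+GKA. The median was lower in LL than in PP with and without GKA, yet 2 LL mice lay above the PP mean of 13.3 CPM.
LL+GKA against PP+GKA gave -1.64 ± 0.40 (adjusted p = 0.0790), with 10 of 10 LL+GKA mice below the PP+GKA mean of 6.98 CPM, and DESeq2 called it (adjusted p = 0.00660). The other differences from PP were -1.25 ± 0.46 in PL (adjusted p = 0.346), -1.21 ± 0.59 in LL (adjusted p = 0.431) and -1.17 ± 0.45 in PL+GKA against PP+GKA (adjusted p = 0.455), and none passed. Without PP mouse 1 the test over 6 groups gave an adjusted p of 0.0680 for this gene.

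**Figure D2:**
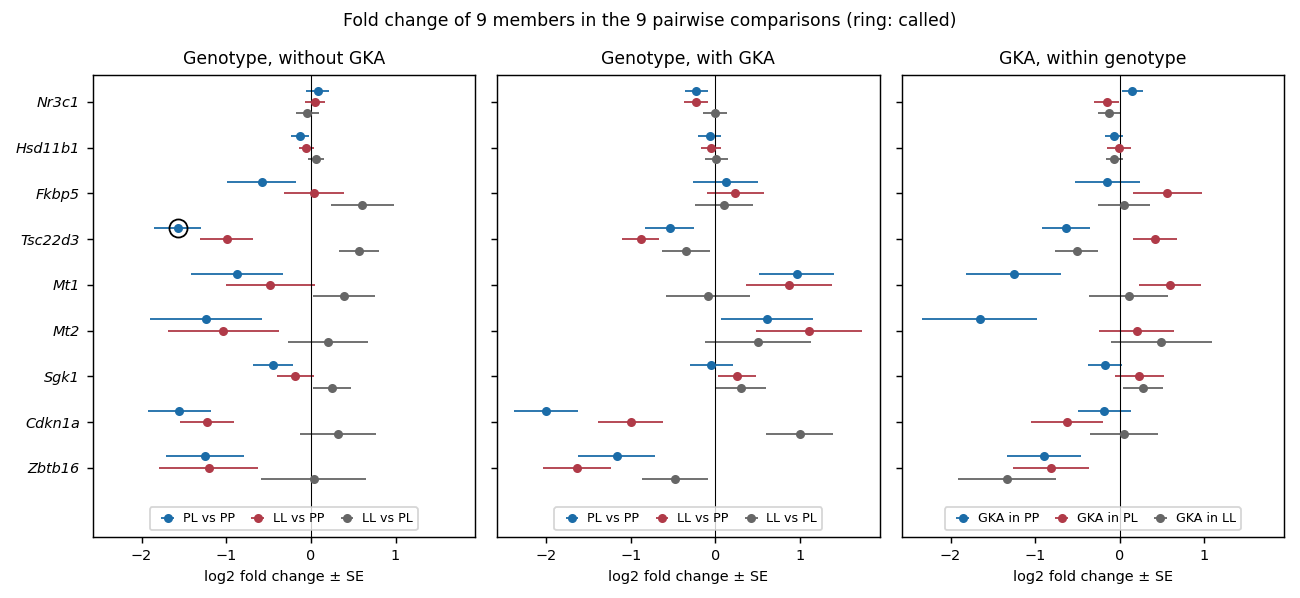
Log2 fold change with its standard error (bars) of 9 members in the 9 pairwise comparisons, fitted by edgeR; a ring marks the 1 call. Tsc22d3, Cdkn1a and Zbtb16 lie left of 0 in all 4 comparisons of PL or LL with PP, and Mt1 and Mt2 lie left of 0 without GKA and right of 0 with GKA.

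The 9 pairwise comparisons share groups, so their members' values are given side by side and are not independent. Between LL and PP 0 of 9 members were called against 9 genes or 0.0854% of those tested (edgeR). There 2 members and 11.8% of genes had an unadjusted p under 0.05. DESeq2 called 1 member, Cdkn1a, among 109 of 10537 genes. The median member lay at -0.48 and the median gene at 0.01, with 7 members lower. Between PL and PP the median member lay at -0.88 (8 of 9 lower) and the median gene at 0.00. Between LL and PL 0 members were called against 0.00942% of genes, with 1 member (Tsc22d3, 0.57 ± 0.23, p = 0.0242) and 4.58% of genes under 0.05 unadjusted. DESeq2 called 0 members there and 24 of 10616 genes. In LL 8 of 9 members were higher than in PL, with a median of 0.25.
With GKA in both groups, 0 of 9 members were called for LL against PP, where 0.239% of genes were. There 3 members and 10.4% of genes were under 0.05 unadjusted. DESeq2 called 2 members, Tsc22d3 and Zbtb16, among 92 of 10460 genes. For PL against PP 0 of 9 members and 0% of genes were called, with 3 members and 8.19% of genes under 0.05. DESeq2 called 1 member, Cdkn1a, among 31 of 10520 genes. For LL against PL 0 of 9 members and 0% of genes were called, with 1 member and 902 of 10491 genes under 0.05. DESeq2 called 0 members there and 39 genes. The median member lay between -0.07 and 0.01 in these 3 comparisons.

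No difference in the receptor or in the hormone-regenerating enzyme passed. Nr3c1 stayed between 28.9 and 72.4 CPM in all 55 mice, with group means of 43.8 ± 10.5 (SD, LL+GKA, n = 10) to 51.3 ± 11.6 CPM (PP+GKA, n = 10), and no pairwise log2 fold change was outside -0.22 to 0.15. Its within-group SD of 0.30 on the log2 scale was near the median of 0.31 over 11477 genes. Hsd11b1 had group means of 431 ± 102 (PL+GKA, n = 8) to 474 ± 64.9 CPM (PP, n = 9), with log2 fold changes of -0.13 to 0.06. For both genes the groups overlapped in every comparison, but not wholly. For Nr3c1, 1 of 10 PP+GKA mice lay below every PP mouse and 3 above, and all 8 PL+GKA mice lay below the PP+GKA mean. For Hsd11b1, 3 of 10 LL+GKA mice lay below every LL mouse and 1 above.
The reads of Nr3c1 were assigned almost wholly to 1 of 2 long transcripts in most mice: the first held under 1% of them in 30 of 55 mice, the second under 1% in 19, and both held at least 1% in 6. Tsc22d3 reads came mainly from 1 transcript, at a median share of 80.0% (57.1% to 97.1%), with group means of 76.7% to 80.4%, and Hsd11b1 reads were divided over 3 transcripts with median shares of 44.8%, 27.7% and 23.0%. These shares are estimates of the quantifier, and gene sums do not depend on how reads are divided among transcripts of 1 gene.

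Fkbp5 and Sgk1, both induced by the receptor in many tissues, showed no difference that passed. Fkbp5 ranged from 1.12 to 35.8 CPM, with medians of 10.5, 8.21 and 10.5 CPM in PP, PL and LL and of 8.59, 9.19 and 10.7 CPM in the GKA-treated groups in the same order. Sgk1 ranged from 2.93 to 12.0 CPM, with medians of 7.18, 4.85 and 5.63 CPM and of 5.88, 4.66 and 8.50 CPM. Group ranges overlapped in every comparison of both genes, and the adjusted p-values over 6 groups were 0.920 for Fkbp5 and 0.826 for Sgk1. At this spread the SE of a pairwise log2 fold change was 0.31 to 0.41 for Fkbp5 and 0.20 to 0.30 for Sgk1.

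The metallothioneins varied more between mice of 1 group than almost all other genes. The lowest, median and highest Mt1 value was 2.54, 15.2 and 54.7 CPM in PP, 5.24, 7.32 and 18.9 CPM in PL, 4.18, 10.9 and 34.3 CPM in LL, 1.14, 5.30 and 17.1 CPM in PP+GKA, 2.29, 14.6 and 31.9 CPM in PL+GKA, and 2.27, 9.16 and 48.7 CPM in LL+GKA. Mt2 had 0.447, 12.7 and 45.7 CPM in PP, 1.78, 3.59 and 12.4 CPM in PL, 0.465, 3.91 and 18.8 CPM in LL, 0.143, 2.38 and 9.39 CPM in PP+GKA, 0.572, 4.41 and 14.1 CPM in PL+GKA, and 0.175, 5.16 and 37.6 CPM in LL+GKA. All groups overlapped. Over the 55 mice the highest value was 48.0 times the lowest for Mt1 and 320.1 times for Mt2, and the within-group SD of 1.17 and 1.53 on the log2 scale ranked at the 96.0 and 97.6 percentile of kept genes. The lowest Mt2 libraries held 1.22 and 1.34 estimated reads, so that ratio is imprecise.
No metallothionein difference passed. In PP livers GKA went with -1.25 ± 0.56 for Mt1 (p = 0.0368) and -1.66 ± 0.68 for Mt2 (p = 0.0243), adjusted p = 1.00 for both, and all 10 PP+GKA mice lay below the PP mean of either gene. With the length offset Mt2 was at -2.52 (adjusted p = 0.766). Against PP+GKA, Mt1 was at 0.96 ± 0.44 in PL+GKA (p = 0.0410, adjusted p = 0.588), with 7 of 8 mice above the PP+GKA mean. That value was 0.22 with the clock covariate, 0.71 without PL+GKA mouse 35, and 0.83 to 1.18 in the other fits. LL+GKA mouse 53, highest in its group for both genes (48.7 and 37.6 CPM), was also the mouse with the highest blood markers; their part in these values was not tested.

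Mt1 and Mt2 rose and sank together from mouse to mouse. After subtraction of group means the Pearson r of log2 CPM over 55 mice was 0.957 and Spearman's rho 0.964, each at the smallest value that 100000 permutations within groups can give (p = 1e-05, adjusted p = 0.00036 over 36 pairs of members). The value was 0.951 without the 2 mice farthest from the Mt1 median, 0.834 to 0.975 within single groups and 0.918 on log2(TPM + 1). The Mt1 share of their summed reads was 52.2% to 91.3%, with a median of 69.9%. Between groups it did not pass in any of 9 comparisons: the largest difference was from 67.2 ± 6.78% in PL (SD, n = 8) to 74.1 ± 5.45% in PL+GKA (n = 8), with a two-sided exact permutation p of 0.0454 and an adjusted p of 0.408.

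**Figure D3:**
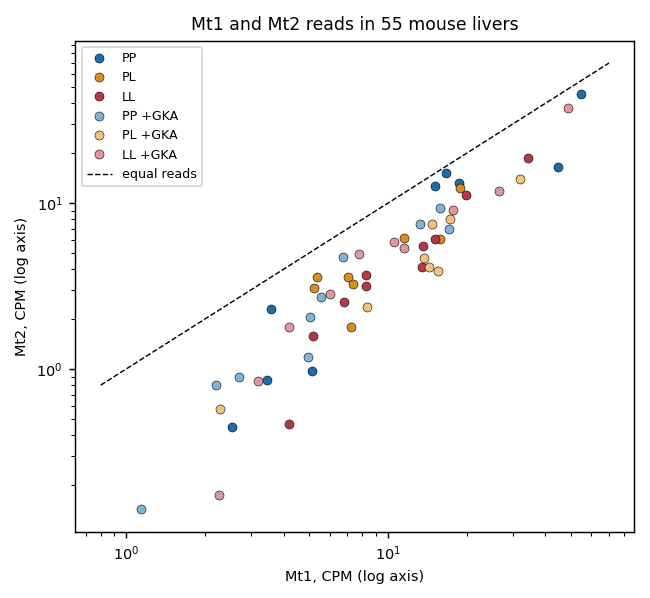
Mt1 against Mt2 in each of 55 mouse livers, in CPM on log axes, coloured by group; the dashed line marks equal reads. Every mouse lies below the line, since Mt1 held 52.2% to 91.3% of the summed reads, and the points of all 6 groups follow 1 band.

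Gadd45b was close to undetected in these livers. Group means lay between 0.117 ± 0.105 (SD, PL) and 0.359 ± 0.174 CPM (LL+GKA). It had 0 to 6.81 estimated reads per mouse with a median of 1.09, and 12 of 55 mice had none. A count of 0 allows up to 3 reads at this depth. Fitted without the filter, its smallest p over 14 comparisons was 0.110 and its smallest adjusted p 0.629, so no difference was detectable at this depth.

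GKA by itself moved no member past the threshold in any genotype. In the tests of GKA and of its interaction with genotype, DESeq2 called 0 to 6 genes. In PP 0 of 9 were called against 0% of all genes, with 3 members (Tsc22d3, Mt1 and Mt2) and 3.56% of genes under 0.05 unadjusted and 0 members by DESeq2; 8 of 9 members were lower, with a median of -0.19 against 0.00 for all genes. Tsc22d3 was at -0.63 ± 0.28 there (p = 0.0374, adjusted p = 1.00), and all 10 PP+GKA mice lay below the PP mean. In PL 0 of 9 were called against 0%, with 0 members and 3.18% of genes under 0.05 and 0 members by DESeq2. In LL 0 of 9 were called against 0%, with 1 member under 0.05 (Zbtb16, -1.33 ± 0.58, p = 0.0322, adjusted p = 0.792), as had 6.15% of genes, and 0 by DESeq2.
Over genotypes 0 of 9 were called against 0%, with 1 member and 5.28% of genes under 0.05 and 0 members by DESeq2. That member was Zbtb16, at -1.01 ± 0.30 (p = 0.00147, adjusted p = 0.625). Its mean was lower with GKA in all 3 genotypes: 6.98 ± 5.01 against 13.3 ± 7.96 CPM in PP (SD, 10 and 9 mice), 3.14 ± 2.49 against 5.45 ± 4.38 CPM in PL (8 mice each) and 2.27 ± 1.31 against 5.68 ± 7.70 CPM in LL (10 mice each). The groups overlapped in each genotype.
Whether the genotype effect differed with GKA was tested as an interaction. For LL 0 of 9 members were called against 0%, with 1 member (Mt2, 2.15 ± 0.96, p = 0.0305, adjusted p = 0.867) and 5.75% of genes under 0.05 and 0 members by DESeq2. The Mt2 value was 3.53 with the length offset and 1.56 without the 3 mice high in blood markers, and passed in neither. For PL 0 of 9 were called against 0%, with 3.35% of genes and 3 members under 0.05 (Tsc22d3, Mt1 at 1.84 ± 0.74 and Mt2 at 1.86 ± 0.90, adjusted p = 1.00 for each) and 0 by DESeq2.

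Besides the metallothionein pair, 1 of the 36 pairs of members passed. Hsd11b1 and Tsc22d3 varied together within groups, with r = 0.457 (permutation p = 0.00064, adjusted p = 0.0115) and rho = 0.474 (permutation p = 0.00047, adjusted p = 0.00846). The r was positive in all 6 groups, from 0.352 to 0.748, and 0.435 without the 2 mice farthest from the Hsd11b1 median. On log2(TPM + 1), where each mouse's isoform lengths also enter, r was 0.751. A rise on that scale was not particular to this pair. For Nr3c1 with Hsd11b1 r went from -0.13 to 0.53, and for Nr3c1 with Cdkn1a from 0.17 to 0.61. For Mt1 with Mt2 it went down, from 0.957 to 0.918. Cdkn1a and Zbtb16, both lower with L alleles, had r = 0.390 (permutation p = 0.00479, adjusted p = 0.0575), which did not pass. Tsc22d3 passed with neither Cdkn1a (r = -0.14, adjusted p = 0.441) nor Zbtb16 (r = 0.12, adjusted p = 0.582).

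**Figure D4:**
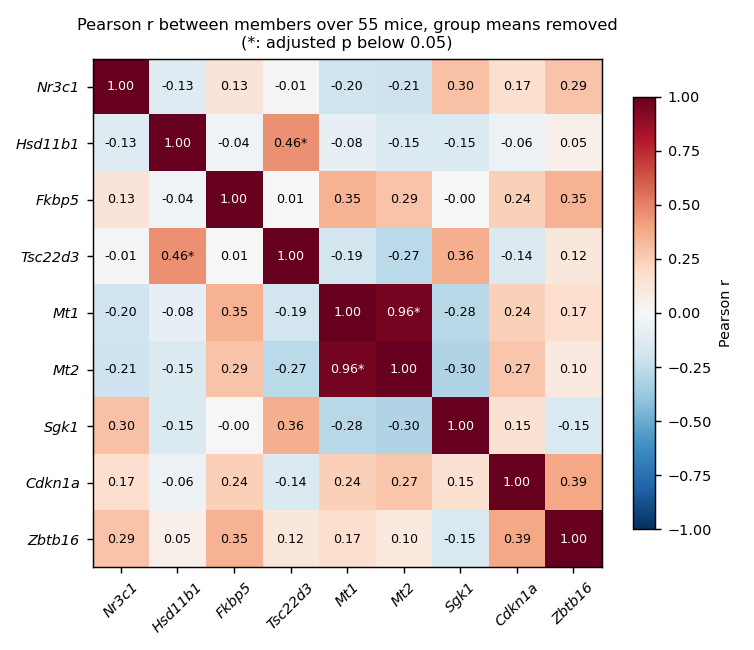
Pearson r of log2 CPM between members over 55 mice after subtraction of group means; a star marks an adjusted p below 0.05. Only Mt1 with Mt2 (0.96) and Hsd11b1 with Tsc22d3 (0.46) carry one.

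The genes most alike to each member in their variation within groups, by Pearson r over the 55 mice among kept genes, are a description and carry no test. For Tsc22d3 they were Tat, the tyrosine aminotransferase known as a glucocorticoid-induced liver enzyme (r = 0.68), Errfi1 (0.67) and G6pc1, the catalytic subunit of glucose-6-phosphatase (0.65). G6pc1 was also among the 3 nearest to Sgk1 (0.63), beside Slc25a25 (0.64) and P2ry13 (0.60). For Mt1 the 3 were Mt2 (0.96), Chd9 (0.62) and Tmem176b (0.59), and for Mt2 they were Mt1, Tmem176b (0.63) and Gde1 (0.62). For Cdkn1a they were the metabolic enzymes Hsd17b4 (0.74), Gpd1 (0.74) and Pcx (0.74), and for Zbtb16 they were Rhobtb1 (0.68), Cpeb2 (0.64) and Ell2 (0.64). Nr3c1 was nearest to Ptprd (0.88), Ptprf (0.87) and Ndst1 (0.87), Hsd11b1 to Afm (0.78), Hibadh (0.73) and Cyp2j5 (0.69), and Fkbp5 to Etfbkmt (0.63), Gpat4 (0.60) and Por (0.58).

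Because hormone release follows the clock and the hour of harvest is not given, members were set beside the clock genes of the same livers. The first principal component of 16 clock genes held 57.3% of their variance and was scaled to SD units, higher where Dbp was higher. Its mean ± SD was -0.602 ± 0.580 among PP livers, 0.554 ± 0.798 among PL and 0.487 ± 0.795 among LL livers. With GKA it was -0.880 ± 1.34, 0.563 ± 0.521 and 0.0406 ± 0.734 in the same order, so the mean of PP was lower than those of L carriers with and without GKA.
Within groups, Nr3c1 was lower where the component was higher (r = -0.490, permutation p = 0.00049, adjusted p = 0.00441 over 9 members; rho = -0.503, permutation p = 0.00036, adjusted p = 0.00324), and r was -0.538 without the 2 mice farthest from its median. The sign was negative in 5 of 6 groups, with r = 0.446 in PL+GKA. Mt1 (r = 0.392, permutation p = 0.00372, adjusted p = 0.0112) and Mt2 (r = 0.386, permutation p = 0.00372, adjusted p = 0.0112) were higher and Sgk1 (r = -0.309, permutation p = 0.0156, adjusted p = 0.0350) was lower, though the rank correlation of these 3 missed the threshold (rho = 0.318, 0.340 and -0.321, permutation p = 0.0230, 0.0161 and 0.0177, adjusted p = 0.0517 for each); without the 2 farthest mice r was 0.350, 0.321 and -0.305. In PL the sign was opposite for Mt1 (-0.716) and Mt2 (-0.575). For the 3 genes that fell with L alleles the within-group r was -0.08 (Tsc22d3), -0.29 (Cdkn1a, adjusted p = 0.0881) and -0.09 (Zbtb16).
With the component as a covariate, Tsc22d3 alone of the 3 passed the test over 6 groups (adjusted p = 0.0150), while Cdkn1a (0.165) and Zbtb16 (0.0642) did not. The change per L allele was then -0.39 for Tsc22d3, -0.68 for Zbtb16 and -0.33 for Cdkn1a, and none passed, as given above. Between PL and PP Tsc22d3 was at -1.73 with the covariate (adjusted p = 0.0993). Beyond these fits the part of the clock component in the differences was not tested.

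**Figure D5:**
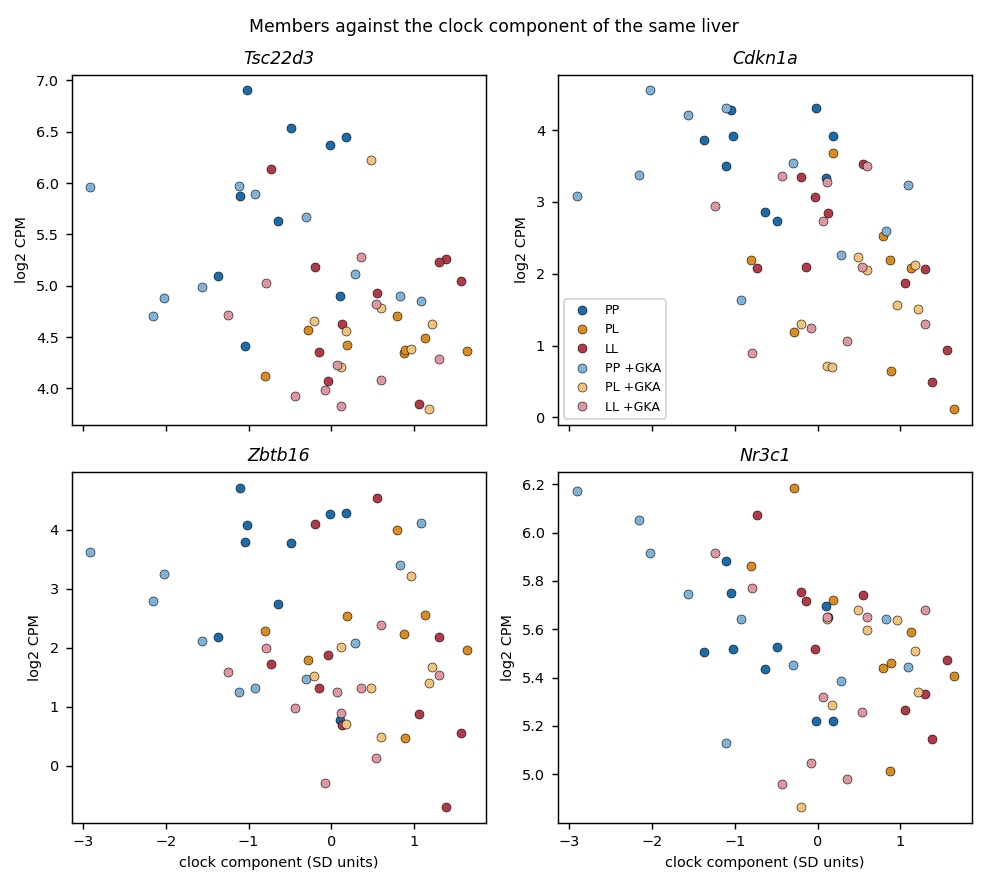
Log2 CPM of Tsc22d3, Cdkn1a, Zbtb16 and Nr3c1 against the clock component (SD units, higher with Dbp) in 55 mouse livers, coloured by group. For Nr3c1 the within-group r was -0.490, and the within-group r was -0.08 for Tsc22d3, -0.29 for Cdkn1a and -0.09 for Zbtb16.

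Other genes of the pathway and of neighbouring pathways were counted in lists, by name. Of 10 genes of the receptor machinery, 4 passed over the 6 groups, where 1.88% of all genes tested did: the chaperones Hspa8 (adjusted p = 0.000622) and Hsp90ab1 (0.0347), and the co-chaperones Fkbp4 (0.000822) and Stip1 (0.0313). Hspa8 fell in PL against PP by 0.72 ± 0.12 on the log2 scale (adjusted p = 0.0158), from 1140 ± 239 CPM (SD, n = 9) to 692 ± 72.5 CPM (n = 8). Per L allele, where 3.53% of all genes were called, Hspa8 (-0.22 ± 0.05) and Fkbp4 (-0.14 ± 0.03) fell and the mineralocorticoid receptor gene Nr3c2 (0.23 ± 0.06, adjusted p = 0.00969) rose.
Of 18 other glucocorticoid targets, 0 passed over the 6 groups, and 4 had an unadjusted p under 0.05, which 12.7% of all genes had. Igfbp1 (adjusted p = 0.0549) and Cebpb (0.0605) were nearest. Only Ddit4, a stress-induced inhibitor of mTOR signalling, fell with L alleles (-0.33 ± 0.09, adjusted p = 0.0328), which is 1 of 18 against 3.53% of all genes. In PL against PP 12 of the 17 tested were lower, with a median of -0.40, and none was called. With GKA in both groups, 10 of 17 were higher in PL than in PP, with a median of 0.07. In LL, 10 of 17 were lower than in PP without GKA (median -0.11) and 12 of 17 with GKA (median -0.18). Against PL without GKA, 14 of 17 were higher in LL (median 0.24). Tat, named above for its likeness to Tsc22d3, was at 763 ± 397 CPM in PP (SD, 9 mice) and 428 ± 115 CPM in PL (8 mice), and the difference did not pass (-0.83 ± 0.30, adjusted p = 0.331).
Of 12 p53 targets tested, 1, Btg2, fell with L alleles (-0.34 ± 0.10, adjusted p = 0.0346), against 3.53% of all genes, and 10 were lower, with a median of -0.07 per allele. In PL against PP all 11 tested were lower, with a median of -0.20. There 5 had an unadjusted p under 0.05, as had 10.1% of all genes, and none was called. In LL against PP 10 of 11 were lower (median -0.12). With GKA, 8 of 10 were lower in PL (median -0.11) and 6 of 10 in LL (median -0.01). None of 7 zinc-handling genes tested passed over the 6 groups or per allele; the 2 with the smallest p over 6 groups were the zinc exporter Slc30a1 (p = 0.00266, adjusted p = 0.0870) and the importer Slc39a10 (adjusted p = 0.391). None of 5 genes of steroid handling passed (Akr1d1, adjusted p = 0.310, and Srd5a1, 0.599, came nearest), nor did Gadd45g (0.374) and Gadd45a (0.650). Of 9 acute phase genes 1, Saa2, passed over the 6 groups (adjusted p = 0.0199, background 1.88%), at 272 ± 424 CPM in PL+GKA (n = 8) against group means of 39.8 to 80.4 CPM elsewhere. Of 16 clock genes 5 passed over the 6 groups, again against 1.88% of all genes (Npas2, Cry1, Nfil3 and Bmal1, which also fell per L allele, and Cry2).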

How the data were processed

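RNA from the left lateral lobe of the liver was sequenced from samples with a RIN value above 6. The authors quantified reads with Salmon 1.4.0 against GENCODE M26 (GRCm39) after FastQC, and deposited estimated counts and TPM per transcript for each mouse. For this report 137570 of 139225 transcripts (98.8%, holding 99.8% to 99.9% of reads) were matched by identifier to release M39 and their counts were summed into 52230 genes and rounded. All pairs of mice within a group differed by more than sampling noise (smallest chi-square 12.1 per degree of freedom over 227 pairs). Genes were filtered by filterByExpr and tested with edgeR 4.0.16 (R 4.3.3), TMM factors and quasi-likelihood F tests, with Benjamini-Hochberg adjustment over all genes tested. The authors used DESeq2 for differential expression, whereas edgeR was the main test here and DESeq2 an alternative. The choice changed the calls: for LL against PP edgeR called 9 genes and DESeq2 109. As in the study, a pairwise call required adjusted p < 0.05 together with a fold outside 0.7 to 1.3. Only the groups compared entered each pairwise fit, which was a choice made here, and tests over all mice needed the adjusted p alone. CPM are TMM-normalised; log2 CPM used a prior count of 2. Correlations and the Mt1 share were tested by permutation (SciPy 1.17.1, two-sided), with full enumeration where 1 group had under 10 mice and 100000 resamples elsewhere.

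Alternatives were DESeq2 1.42.0, RLE factors, no filter, the clock component, a transcript length offset, PP mouse 7 kept, 1 fit over 6 groups, and mice left out; leaving out mice from the tests over all groups, and the blood-rich mice together, was chosen after seeing the data. Scripts were tested on simulated counts, with a single draw for each test. There the test over 6 groups, with changes put only into untreated LL mice, made more false calls than its threshold allows. Those of allele dose and of PL against PP did not. A single draw cannot show whether the threshold holds in general for any of these tests. All 10 members were named in every comparison, with up to 4 called genes of each other list, or else the 2 with the smallest p over 6 groups. Members and lists were chosen with earlier results of these data known. No proteins were analysed here.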

Additional observations from a re-analysis of the deposited data

Results flagged for a closer look

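In 13 of 54 member-by-group sets of mice, the highest mouse stood apart from the rest by Dixon's criterion, and no lowest mouse did. The criterion flags about 1 in 20 sets of normally distributed values. It was applied to CPM without logs, where right-skewed values flag the highest mouse more often. The count of 13 therefore cannot be set against that rate. The values below are CPM, with the next mouse of the group in brackets. For Hsd11b1 this was PP+GKA mouse 17 at 616.8 (483.7). For Fkbp5 it was LL mouse 41 at 34.0 (15.5) and LL+GKA mouse 47 at 35.8 (15.3). For Tsc22d3 it was LL mouse 44 at 69.9 (37.9) and PL+GKA mouse 30 at 74.5 (27.1); mouse 30 also had the highest summed cholangiocyte markers (Krt19, Krt7 and Epcam) of its group, 5.17 CPM against a group median of 0.553, and their part in its value was not tested.

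Among the metallothioneins, Mt1 was flagged in LL mouse 41 at 34.3 (19.9) and LL+GKA mouse 53 at 48.7 (26.5), and Mt2 in PP mouse 9 at 45.7 (16.6), PL mouse 22 at 12.4 (6.16) and LL+GKA mouse 53 at 37.6 (11.8). Cdkn1a was flagged in PL mouse 22 at 12.5 (5.48). LL mouse 41, LL+GKA mouse 53 and PL mouse 22 were thus each flagged for 2 members. Zbtb16 was flagged in PL mouse 25 at 15.7 (5.59) and PL+GKA mouse 34 at 8.96 (3.72). Leaving out PL mouse 22 brought Cdkn1a past the threshold against PP (log2 fold change -1.99, adjusted p = 0.0192).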

How the results depend on the processing

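DESeq2 called 1 member for LL against PP (main 0), 2 for PL against PP (main 1), 2 for LL against PP with GKA (main 0) and 1 for PL against PP with GKA (main 0). Over all genes it called 109, 71, 92 and 31 in these comparisons (main 9, 16, 25 and 0). The clock covariate left 0 for PL against PP, 1 of 3 over the 6 groups and 0 of 3 for allele dose. The length offset left 0 for PL against PP and 1 of 3 for allele dose, and 1 fit over 6 groups gave 1 for PL against PP with GKA. The causes were not tested. Leaving out single mice gave 0 to 2 members for PL against PP, 0 to 1 for LL against PP with GKA (Tsc22d3 without LL+GKA mouse 51, adjusted p = 0.0488), 2 to 3 over the 6 groups, and 3 for allele dose in all fits. For single members and the Mt1 share, 37 values were refitted under alternatives. In 719 refits the value kept its direction and side of the threshold, in 8 it came to pass and in 13 it no longer passed. Most of these refits left out 1 mouse, so the counts are no measure of how many values held throughout. Differences near 0 that passed in no fit did change sign: with the clock covariate Zbtb16 in LL against PL (0.03 to -0.04) and Cdkn1a with GKA in LL (0.05 to -0.10), with the length offset the interaction of Tsc22d3 with LL (0.12 to -0.12), and with PP mouse 7 kept that of Zbtb16 with PL (0.08 to -0.03). Over all genes, alternatives moved the calls from 9 to 0 to 109 for LL against PP, from 16 to 0 to 71 for PL against PP, from 25 to 0 to 92 for LL against PP with GKA, from 216 to 111 to 403 over the 6 groups and from 405 to 37 to 474 for allele dose. No paired analysis was possible because no mouse number is shared between groups. Depth limits Gadd45b and the lowest Mt2 values.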
